A study of Mus musculus with 46 samples.

Results

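This report describes 43 genes of the transforming growth factor beta (TGF-beta) and bone morphogenetic protein (BMP) pathways in mouse synovial sarcomas. The genes were taken by name as the ligands, receptors, SMADs, inhibitors and targets of these pathways, at a time when earlier results of these data were known, and each of the 43 matched 1 identifier among the 56854 genes shared by both count tables. They comprise 13 ligands, 10 receptors, 8 SMADs, 4 ID genes, 5 inhibitors and 3 latent TGF-beta binding proteins. RNA was sequenced from 46 tumours, each from a different mouse.

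Every tumour, controls included, expressed a human SS18::SSX fusion from Rosa26, switched on by injecting TATCre protein into the limb at 8 days of age. In the hSS2 background (SS18::SSX2) there were 13 control tumours, 8 with conditional disruption of Pbrm1 (Pbrm1-fl), 8 with Arid1a (Arid1a-fl) and 8 with Arid1b (Arid1b-fl). In the hSS1 background (SS18::SSX1) there were 5 control tumours and 4 Pbrm1-fl tumours. The disrupted genes encode subunits of chromatin remodelling complexes, PBRM1 in PBAF and either ARID1A or ARID1B in canonical BAF (CBAF). Mice were a mixed CB57Bl/6-svJ strain aged between 2 and 6 months. Floxed alleles were homozygous according to the methods, whereas the sample labels give only a conditional knockout. Cre acts only in limb cells that take up the protein, so a tumour piece holds host cells with intact alleles beside recombined tumour cells. In such bulk tissue, fewer cells of a type and less RNA per cell cannot be told apart.

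BMPs and TGF-betas are secreted ligands that bring together type I and type II serine/threonine kinase receptors. BMP receptors phosphorylate SMAD1, SMAD5 and SMAD9, TGF-beta and activin receptors phosphorylate SMAD2 and SMAD3, and both sets enter the nucleus with SMAD4. ID genes are classical direct targets of BMP signalling, secreted proteins such as Noggin and Gremlin-1 bind BMPs and keep them from their receptors, and in limb mesenchyme this balance is known for its part in skeletal, joint and digit formation.

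Libraries held between 10137668 and 21294657 counted reads. Pbrm1 was at 171, 253 and 316 CPM (counts scaled to a common library total; lowest, median and highest) in hSS2 controls and at 95.0, 97.1 and 139 CPM in hSS2 Pbrm1-fl tumours, and all 8 of these lay below every control (log2 fold change -1.27, adjusted p = 4.2e-12). Arid1a fell in Arid1a-fl tumours (log2 fold change -0.95, adjusted p = 7.01e-05). Arid1b in Arid1b-fl (-0.80, adjusted p = 0.145) and Pbrm1 in hSS1 Pbrm1-fl (-0.75, adjusted p = 0.193) did not pass, although all 4 hSS1 Pbrm1-fl tumours lay below every hSS1 control. These gene counts include exons outside the deleted part. The library labelled hSS2 control replicate 9 stood apart, since it had Arid1a at 238 CPM, inside the Arid1a-fl range of 229 to 276 CPM. Mouse numbers and muscle content also moved with the groups. The mouse numbers in the titles were all 2000 and over in hSS2 Pbrm1-fl, all under 1000 in Arid1a-fl and all from 1000 to under 2000 in Arid1b-fl, while the hSS2 controls divided into 5, 4 and 4 tumours of the lower, middle and upper range. Skeletal muscle markers (10 of 10 genes detected in every group) summed to 12.6, 3175 and 42710 CPM in hSS2 controls against 6.99, 180 and 13670 CPM in Pbrm1-fl, and 7 hSS2 libraries exceeded 10000 CPM. Of 10 listed synovial sarcoma markers, 9 matched the tables and were detected in all groups.

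To compare levels between genes, CPM were divided by the summed exon length in kb (FPKM). In hSS2 controls, Tgfb3 (98.7 ± 43.5 FPKM, SD, n = 13), which encodes a TGF-beta ligand, and the BMP target Id3 (95.1 ± 71.7 FPKM) had the highest mean levels. Ltbp3 (78.1 ± 16.8 FPKM), Id2 (62.8 ± 30.04 FPKM), Bmp7 (58.6 ± 14.6 FPKM) and Id1 (43.2 ± 36.4 FPKM) followed. Neighbours among these 6 differed by less than the larger of their SDs. Among receptors the highest were the TGF-beta co-receptor Tgfbr3 (37.8 FPKM), the BMP type I receptor Bmpr1a (28.8 FPKM) and the BMP type II receptor Bmpr2 (23.4 FPKM), and among SMADs Smad4 (26.4 FPKM), Smad5 (23.5 FPKM) and Smad3 (21.9 FPKM). Id4 (13.6 FPKM) was the lowest ID gene.

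Among inhibitors the highest were Fst, which binds activins (15.6 FPKM), Grem1 (9.16 FPKM) and Nog (7.20 FPKM). Each lay below the receptors and SMADs just named, but Fst lay above Id4 (13.6 FPKM). Ltbp1 averaged 11.7 FPKM and Ltbp2 2.24 FPKM. The lowest of the 43 was the joint-forming ligand Gdf5 (0.208 FPKM), which also failed the filter on low counts in hSS1. Between 20 and 25 of the 43 genes averaged at least 10 FPKM in each of the 6 groups. Tgfb3 ranked first in hSS2 controls but varied widely, from 44.8 to 200.4 FPKM, while Smad2 lay between 8.74 and 12.1 FPKM.

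**Figure D1:**
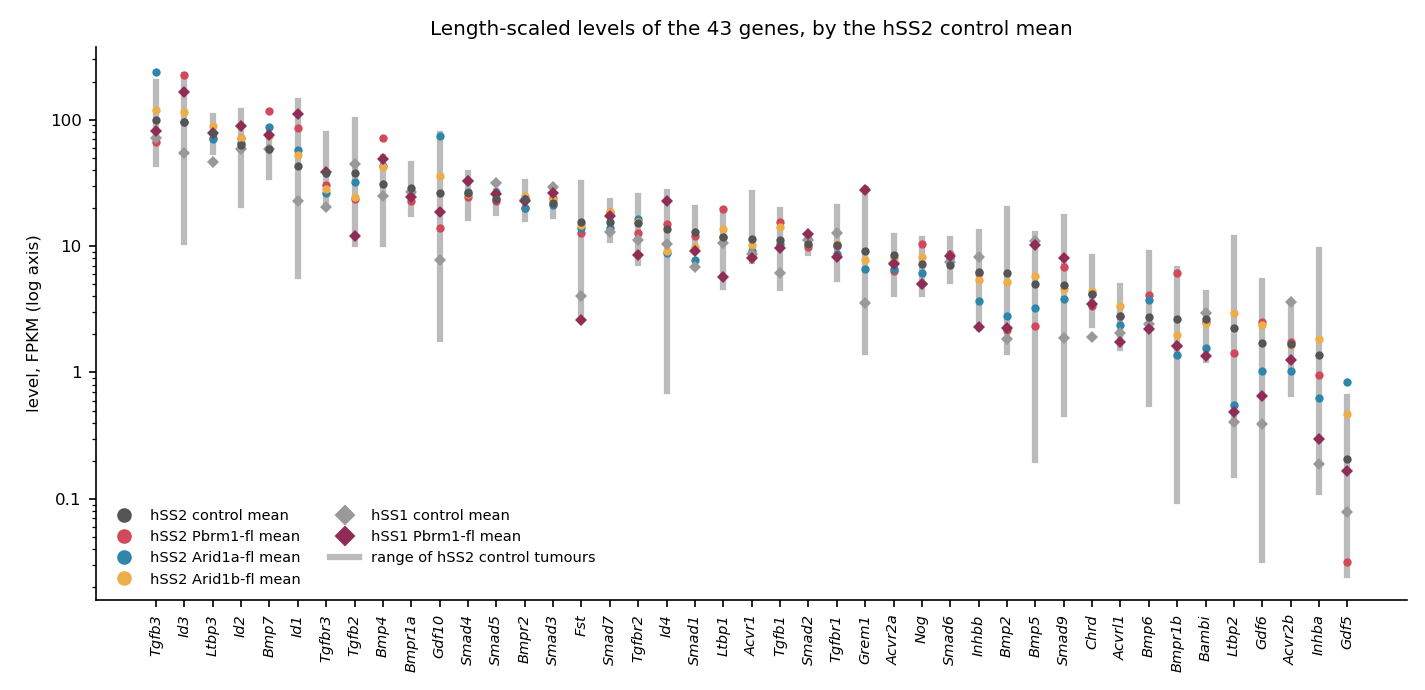
Length-scaled level of the 43 genes, in FPKM on a log axis, ordered by the hSS2 control mean, with points for the means of the 6 genotype groups and bars for the range over the 13 hSS2 control tumours. Tgfb3 (98.7 FPKM) stands first in hSS2 controls and Gdf5 (0.208 FPKM) last.

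In hSS2 Pbrm1-fl tumours 4 of the 43 genes rose and 2 fell against control tumours by edgeR's quasi-likelihood test with Benjamini-Hochberg adjustment over 20083 genes at 0.05, against a background of 7.35% of all genes called (3.4% higher, 3.95% lower). The ligands Bmp7 and Bmp4 and the BMP antagonists Grem1 and Nog rose, and the ligands Bmp2 and Gdf5 fell. Of the roles, 4 of 13 ligands and 2 of 5 inhibitors passed, and none of the 10 receptors, 8 SMADs, 4 ID genes or 3 latent TGF-beta binding proteins did. At an unadjusted p under 0.05 there were 14 of 43 (8 higher, 6 lower) beside 22.4% of all genes, and the median log2 fold change was -0.05 for the 43 and -0.00 for all genes.

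Bmp7 (chr2:172868012-172940321, minus strand, GRCm38) encodes a BMP ligand of kidney, eye and skeletal development. Its lowest, median and highest levels were 141, 234 and 340 CPM in the 13 controls and 271, 425 and 831 CPM in the 8 Pbrm1-fl tumours. Of the 8 Pbrm1-fl tumours, 6 lay above every control, and the group difference was 0.99 ± 0.17 on the log2 scale (SE; adjusted p = 0.000355). The call held in all 21 fits that each left out 1 tumour (0.82 to 1.06). Control tumours of the 3 mouse-number ranges averaged between 224 and 261 CPM, and the log2 fold change was 1.06 with the number range as a term.

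Bmp4 (chr14:46383520-46390669, minus strand), a ligand of mesoderm and limb patterning, was at 23.3, 82.3 and 115 CPM in controls and at 60.2, 94.1 and 572 CPM in Pbrm1-fl tumours. The medians were close, and the difference came mainly from Pbrm1-fl replicate 3 (572 CPM) and replicate 7 (196 CPM), the 2 tumours above every control. Its log2 fold change of 1.195 ± 0.35 passed (adjusted p = 0.0287), but it was 0.53 (adjusted p = 0.312) without Pbrm1-fl replicate 3, and the call was also lost without Pbrm1-fl replicate 7 or control replicate 9 (1.09, adjusted p = 0.0511). In the 4 controls numbered 2000 and over, Bmp4 averaged 34.8 ± 13.1 CPM, below the 85.3 ± 36.2 CPM of the 5 numbered under 1000.

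Bmp2 (chr2:133552159-133562885, plus strand), a ligand of bone and cartilage formation, moved the opposite way to Bmp4 and Bmp7. It was at 5.13, 18.7 and 70.2 CPM in controls and at 3.46, 5.19 and 14.2 CPM in Pbrm1-fl tumours. All 8 lay below the control median and 3 below every control (log2 fold change -1.51 ± 0.44, adjusted p = 0.0302). Controls numbered 2000 and over averaged 10.8 ± 5.77 CPM against 26.8 ± 25.3 CPM for those under 1000, and with the number range as a term the log2 fold change was -0.49 (adjusted p = 0.793). The call was lost in 6 of 21 fits without 1 tumour, namely Pbrm1-fl replicate 2, 3, 4, 5 or 8 or control replicate 11 (highest adjusted p = 0.0685).

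Gdf5 (chr2:155941023-155945367, minus strand) was barely expressed in these tumours. Controls had 0.0585, 0.441 and 1.48 CPM, with at most 29 reads in a library, and Pbrm1-fl tumours had 0, 0.0299 and 0.268 CPM, with no read in 4 of 8 and at most 4 reads. The log2 fold change of -2.76 ± 0.87 (adjusted p = 0.0452) rested on these few reads. It passed in 7 of 21 fits without 1 tumour (highest adjusted p of the others 0.0934), and with the number range as a term it was -0.47. Gdf5 averaged 0.0922 CPM in controls numbered 2000 and over.

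Receptors ranged from -0.46 to 1.19 in log2 fold change, SMADs from -0.12 to 0.47 and the latent TGF-beta binding proteins from -0.67 to 0.74. The 4 ID genes, which respond to BMP signalling in many cells, had positive log2 fold changes in Pbrm1-fl tumours, and none passed. Id3 (chr4:136143497-136145755, plus strand) was at 19.2, 147 and 406 CPM in controls and at 198, 376 and 725 CPM in Pbrm1-fl tumours, with 8 of 8 above the control median and 3 above every control (log2 fold change 1.26 ± 0.43, adjusted p = 0.0662). Id1 (chr2:152736251-152737410, plus strand) was at 6.79, 40.2 and 162 CPM and at 22.4, 70.7 and 275 CPM, with wide overlap (0.99 ± 0.48, adjusted p = 0.218). Among receptors, Bmpr1a (-0.33, adjusted p = 0.0741) and the activin type II receptor Acvr2a (-0.41, adjusted p = 0.0843) also missed the threshold. DESeq2 called Id3, Bmpr1a and Acvr2a beside the 6 genes called by edgeR.

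Grem1 (chr2:113746164-113758646, minus strand), the gene of the secreted BMP antagonist Gremlin-1, was at 6.01, 29.1 and 111 CPM in controls and at 52.3, 95.1 and 198 CPM in Pbrm1-fl tumours. All 8 Pbrm1-fl tumours lay above the control median and 3 above every control, so the groups overlapped. Its log2 fold change of 1.64 ± 0.41 (adjusted p = 0.0113) kept its call in all 21 fits without 1 tumour (1.48 to 1.89). Without the 7 muscle-rich libraries it was 1.46 (adjusted p = 0.0705).

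The sequence upstream of Grem1, the ligand gene Gdf10 and the receptor gene Bmpr1b is shown, from the RefSeq promoter table (GRCm38.p6). These 3 passed between Pbrm1-fl and Arid1a-fl tumours, as given further on, and have an entry there. Gdf5, Tgfb3 and Nog also passed but have no entry. Each run is the 250 bases before an annotated start, 5′ to 3′ on the gene's strand, and capitals mark GGCGCC, a GC-rich element bound by BMP SMADs. The windows are chr2:113758649-113758898 (minus) for Grem1, chr14:33923337-33923586 (plus) for Gdf10 and chr3:141982265-141982514 (minus) for an alternative start inside Bmpr1b.
Grem1: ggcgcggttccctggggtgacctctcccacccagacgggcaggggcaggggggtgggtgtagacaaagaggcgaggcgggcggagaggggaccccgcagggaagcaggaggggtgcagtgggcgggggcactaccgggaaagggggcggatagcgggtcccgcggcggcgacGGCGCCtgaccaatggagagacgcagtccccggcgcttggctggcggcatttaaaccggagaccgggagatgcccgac
Gdf10: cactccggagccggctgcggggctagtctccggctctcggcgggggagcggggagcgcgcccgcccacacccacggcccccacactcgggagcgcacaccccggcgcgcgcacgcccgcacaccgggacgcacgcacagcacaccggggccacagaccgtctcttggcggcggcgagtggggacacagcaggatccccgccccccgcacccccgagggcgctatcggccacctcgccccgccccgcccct
Bmpr1b: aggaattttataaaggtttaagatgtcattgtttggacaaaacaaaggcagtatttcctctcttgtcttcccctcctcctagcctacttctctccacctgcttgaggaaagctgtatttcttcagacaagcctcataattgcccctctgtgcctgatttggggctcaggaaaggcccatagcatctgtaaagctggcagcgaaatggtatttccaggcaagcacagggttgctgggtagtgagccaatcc
The Grem1 window is 72.0% G and C, the Gdf10 window 78.8% and the Bmpr1b window 46.8%. GGCGCC, which reads the same on both strands, occurred in 9.59% of 32851 windows of the promoter table. Of the 29 genes with an entry, 9 had it in at least 1 of their windows. These 29 genes have 35 windows together, so a share of genes and a share of windows cannot be compared directly. GTCTAG, a SMAD3 and SMAD4 element searched on both strands, occurred in 7.11% of windows and in 1 of the 29 genes, at another Bmpr1b start. A match of letters is a description only.

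Nog (chr11:89300638-89302332, minus strand) encodes Noggin, a BMP antagonist required for joint formation. It was at 7.07, 11.5 and 19.4 CPM in controls and at 12.2, 17.3 and 23.9 CPM in Pbrm1-fl tumours, with 8 of 8 above the control median and 2 above every control. The log2 fold change of 0.54 ± 0.17 lay close to the threshold (adjusted p = 0.0477). It passed only without control replicate 1, 4, 5 or 8 or Pbrm1-fl replicate 8, and was lost in the other 16 of 21 such fits (highest adjusted p = 0.125), and it did not pass without the muscle-rich libraries (0.48, adjusted p = 0.132).

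The mouse number could be separated from the Pbrm1 genotype only through the control tumours. With the number range as a term, 6 of the 43 genes passed: Bmp7 and Grem1 (2.25, adjusted p = 0.0495) again, Bmp4 (2.21, adjusted p = 0.0128), Id1 (2.59, adjusted p = 0.043) and Id3 (2.30, adjusted p = 0.0488) as higher, and the BMP type I receptor Acvr1 (-0.88, adjusted p = 0.0253) as lower. Over all genes fewer passed with the term than without it, as counted at the end of the report. A fit of only the 8 Pbrm1-fl tumours and these 4 controls gave about the same log2 fold changes (Grem1 2.23, Bmp4 2.20), but none passed. Between controls numbered 2000 and over and those under 1000, 1 of the 43 passed (Smad4, -0.43, adjusted p = 0.0451, beside 1.46% of all genes, 0.686% higher and 0.776% lower), and 13 had an unadjusted p under 0.05 beside 18.1% of all genes. Of those 13, 11 were lower in the controls numbered 2000 and over, among them Id1, Bmp4 (-1.29), Bmp2 (-1.31) and Gdf5 (-2.40).

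**Figure D2:**
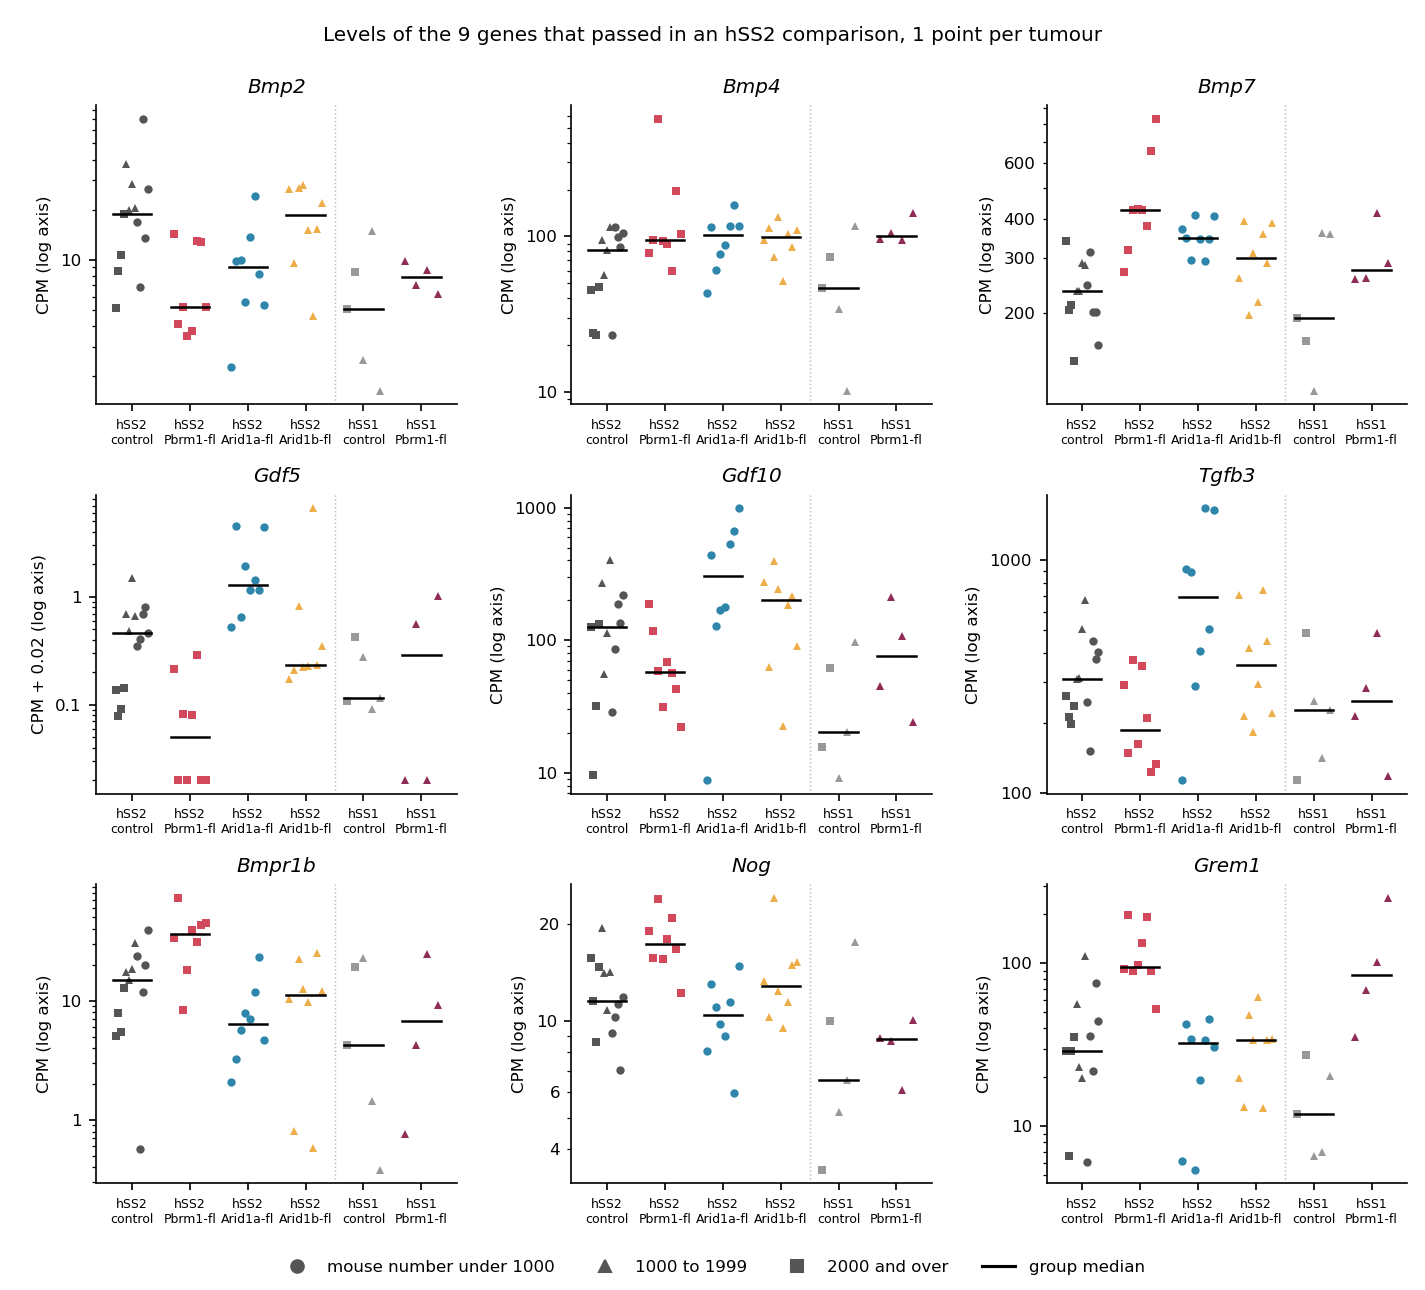
Level of the 9 genes called in at least 1 hSS2 comparison, in CPM on a log axis, with 1 point per tumour in the 6 genotype groups, marker shapes for the range of the mouse number and black lines for group medians (0.02 CPM was added to Gdf5 to show tumours at 0). For Bmp7, 6 of the 8 hSS2 Pbrm1-fl tumours lie above every hSS2 control, and for Bmp4 only 2 do.

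Of 79 further genes of the same pathways, 67 could be tested and 7 passed in this comparison, 4 higher and 3 lower (10.4% beside 7.35% of all genes). The BMP-responsive homeobox genes Msx1 and Msx2 and the BMP-responsive factor Atoh8 rose, as did Emilin1, whose product restrains TGF-beta maturation. The BMP antagonist Chrdl1, the BMP modulator Twsg1 and the TGF-beta-induced matrix gene Tgfbi fell. Of the 8 BMP-responsive genes listed, 7 were tested, 3 passed and 7 had positive log2 fold changes (median 0.80). Of the 10 TGF-beta-responsive genes, 1 passed and 10 had negative log2 fold changes (median -0.94, beside -0.00 for all genes). These genes were also lower in 8 of 10 in Arid1a-fl tumours (median -0.76), against 3 of 10 in Arid1b-fl and 5 of 9 tested in hSS1 Pbrm1-fl. BMP-responsive genes had positive log2 fold changes in 3 of 7 in Arid1a-fl and in 4 of 7 in both Arid1b-fl and hSS1 Pbrm1-fl.

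Msx1 was at 48.7, 90.5 and 226 CPM in controls and at 182, 353 and 880 CPM in Pbrm1-fl tumours, 6 of 8 above every control (1.88 ± 0.33, adjusted p = 0.00049). Chrdl1 was at 23.1, 84.6 and 315 CPM in controls and at 4.20, 19.1 and 47.2 CPM in Pbrm1-fl tumours, 5 of 8 below every control (-2.76 ± 0.52, adjusted p = 0.000961). Tgfbi was at 78.8, 220 and 974 CPM and at 15.2, 45.1 and 218 CPM, 5 of 8 below every control (-1.70 ± 0.46, adjusted p = 0.0207). Msx1, Chrdl1, Tgfbi and Twsg1 (-0.39, adjusted p = 0.0171) kept their calls in all 21 fits without 1 tumour. Msx2 (0.85, adjusted p = 0.0328) lost it in 7 of these fits, Atoh8 (1.01, adjusted p = 0.017) without Pbrm1-fl replicate 7 or 8, and Emilin1 (1.89, adjusted p = 0.0454) in 15, falling to 1.06 (adjusted p = 0.28) without Pbrm1-fl replicate 2. With the number range as a term, Msx1 (1.80, adjusted p = 0.0451), Chrdl1 (-2.21, adjusted p = 0.0407) and Twsg1 (-0.52, adjusted p = 0.0338) passed, and Tgfbi (-0.70, adjusted p = 0.644), Emilin1 (1.15, adjusted p = 0.625), Msx2 (1.16, adjusted p = 0.0871) and Atoh8 (1.30, adjusted p = 0.0742) did not. In a fit of only the Pbrm1-fl tumours and the 4 controls numbered 2000 and over, none of the 7 passed. The sizes were close to those with the term, with Msx1 at 1.79 (adjusted p = 0.177), Chrdl1 at -2.22 (adjusted p = 0.191) and Twsg1 at -0.53 (adjusted p = 0.0884). Adipocyte markers had a median of 189 CPM in controls and 24.4 CPM in Pbrm1-fl tumours, with overlapping ranges of 2.61 to 1468 and 2.08 to 547 CPM. Fibroblast markers had medians of 3542 and 3659 CPM. Pericyte and smooth muscle markers had medians of 646 and 444 CPM. The part of these cells in the results was not tested.

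In Arid1a-fl tumours 2 of the 43 genes passed against the same 13 controls, both ligands and both higher, beside 3.17% of all genes called (1.41% higher, 1.76% lower). Tgfb3 (chr12:86056745-86079041, minus strand) was at 152, 308 and 678 CPM in controls and at 113, 697 and 1676 CPM in Arid1a-fl tumours. Of the 8 Arid1a-fl tumours, 4 lay above every control and 1 below every control, so that the disrupted group spanned a wider range than the controls (log2 fold change 1.27 ± 0.35, adjusted p = 0.043). Bmp7 was at 293, 346 and 411 CPM in Arid1a-fl tumours, 6 of 8 above every control (0.58 ± 0.17, adjusted p = 0.0486).

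Both calls were close to the threshold. Tgfb3 passed in 9 of 21 fits without 1 tumour, those without control replicate 1, 6, 7, 8, 10 or 11 or Arid1a-fl replicate 1, 3 or 4, and was lost in the other 12 (highest adjusted p = 0.137). Bmp7 passed in 5, those without control replicate 1, 8 or 10 or Arid1a-fl replicate 3 or 6 (highest adjusted p of the others 0.119). Without control replicate 9, whose Arid1a lay in the Arid1a-fl range, none of the 43 passed (Tgfb3 1.24, adjusted p = 0.057; Bmp7 0.59, adjusted p = 0.0563). None passed without the muscle-rich libraries either, with Tgfb3 at 1.37 (adjusted p = 0.106) and Bmp7 at 0.52 (adjusted p = 0.119).

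The next genes by p were Smad1, the BMP signal transducer, at 56.8, 79.5 and 125 CPM in controls and 25.8, 53.98 and 68.1 CPM in Arid1a-fl tumours (-0.72 ± 0.21, adjusted p = 0.0517), and the pseudoreceptor gene Bambi at 6.31, 13.9 and 21.5 CPM and 3.96, 6.83 and 16.99 CPM (-0.78 ± 0.23, adjusted p = 0.0524). Neither passed, and DESeq2 called both, together with Gdf5 and Ltbp2. The mouse number range as a term in effect set Arid1a-fl against the 5 controls numbered under 1000. These controls include replicate 9, whose Arid1a lay in the Arid1a-fl range. With the term, 3 receptor genes passed as lower, namely Acvr2a (-0.57, adjusted p = 0.029), Acvr2b (-1.16, adjusted p = 0.0421) and Tgfbr3 (-0.97, adjusted p = 0.0427). The count over all genes also rose with the term, as given at the end of the report. Tgfb3 (1.30, adjusted p = 0.0784) and Bmp7 (0.65, adjusted p = 0.0663) kept their size and missed the threshold. At an unadjusted p under 0.05 there were 14 of 43 (5 higher, 9 lower) beside 23.0% of all genes. None of the 67 further pathway genes passed, and 15 of them had an unadjusted p under 0.05.

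In Arid1b-fl tumours none of the 43 genes passed by edgeR or DESeq2, beside 0.0548% of all genes called (0.0249% higher, 0.0299% lower), and 1 had an unadjusted p under 0.05 beside 6.22% of all genes. That gene was Bmp7, at 196, 300 and 391 CPM in Arid1b-fl tumours (0.35 ± 0.17, adjusted p = 0.791). The next by p were Smad6, an inhibitory SMAD (0.28), Smad1 (-0.38) and Gdf5 (1.17, adjusted p = 0.801). The Gdf5 value came from 1 tumour, Arid1b-fl replicate 6 with 6.58 CPM, and was -0.68 (adjusted p = 0.957) without it. The 3 hSS2 comparisons share their 13 controls, and the Bmp7 log2 fold changes stood at 0.99, 0.58 and 0.35 in Pbrm1-fl, Arid1a-fl and Arid1b-fl. None of the 67 further pathway genes passed in Arid1b-fl tumours, and 2 had an unadjusted p under 0.05.

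**Figure D3:**
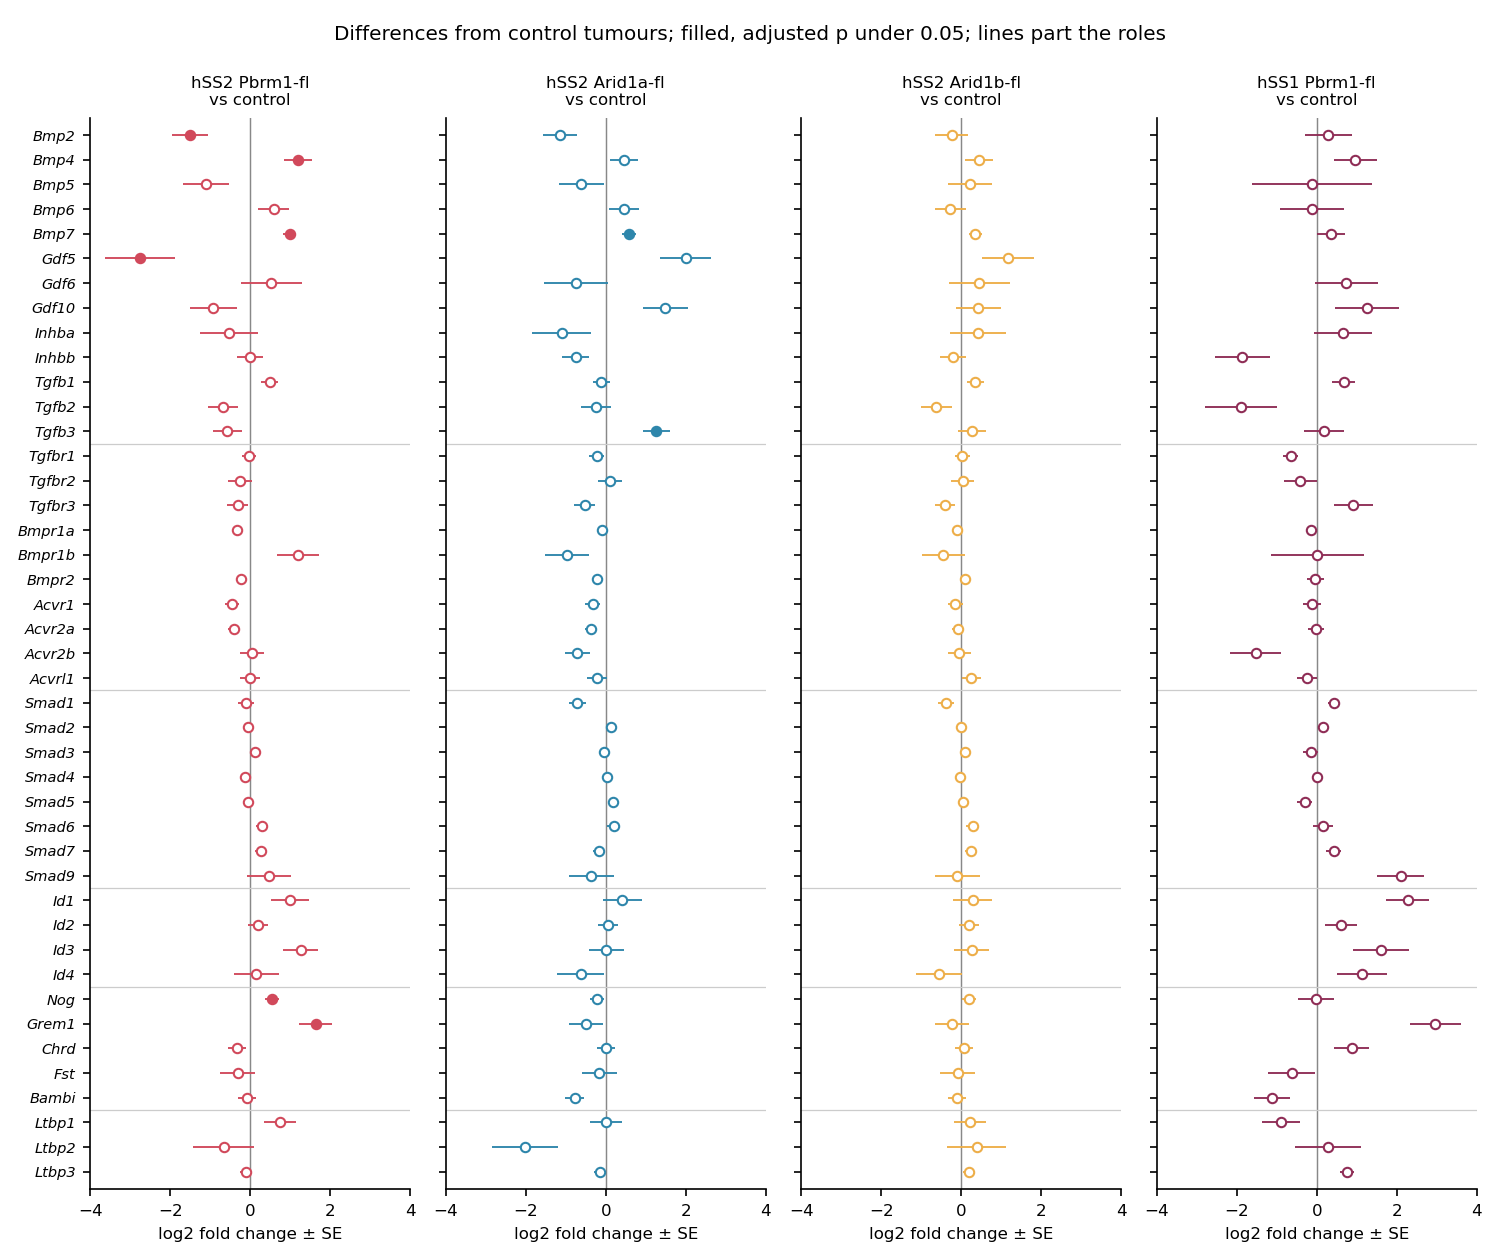
Log2 fold change of each of the 43 genes by role in the 4 comparisons of disrupted with control tumours, with bars for SE and filled points for genes past the adjusted threshold. Points for 6 genes are filled in hSS2 Pbrm1-fl, for 2 in Arid1a-fl and for none in Arid1b-fl or hSS1 Pbrm1-fl, where Gdf5 was not tested.

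Tumours with Pbrm1 and Arid1a disrupted were also compared with each other, which needs no control tumour but sets the highest against the lowest range of mouse numbers. Of the 43 genes 6 passed, 3 higher and 3 lower in Pbrm1-fl, beside 12.3% of all genes (6.79% higher, 5.5% lower), and 16 had an unadjusted p under 0.05 beside 26.8%. Grem1, Nog and the BMP type I receptor gene Bmpr1b were higher in Pbrm1-fl, and the ligands Gdf5, Tgfb3 and Gdf10 were higher in Arid1a-fl. All 6 calls held in each of 16 fits without 1 tumour. When each group was first set against controls of its own number range, none passed. Under that setting Grem1 (2.67, adjusted p = 0.0605) and Bmpr1b (3.43, adjusted p = 0.0605) had larger differences, whereas Gdf5 (-2.37, adjusted p = 0.386), Nog (0.42, adjusted p = 0.474), Gdf10 (-1.62, adjusted p = 0.402) and Tgfb3 (-1.33, adjusted p = 0.25) had smaller ones.

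Grem1 did not overlap between these groups, at 52.3 to 198 CPM in Pbrm1-fl and 5.43, 32.5 and 45.3 CPM in Arid1a-fl (2.12 ± 0.48, adjusted p = 0.00366). Gdf5 did not overlap either, at 0 to 0.268 CPM and 0.510, 1.27 and 4.53 CPM, the latter with up to 87 reads in a library (-4.77 ± 0.91, adjusted p = 0.00076). Both genes were named because they passed, and the share of all genes without overlap is not given here. Nog was at 5.99, 10.4 and 14.8 CPM in Arid1a-fl, and 7 of 8 Pbrm1-fl tumours lay above all of these (0.77 ± 0.19, adjusted p = 0.00768). Tgfb3 was at 122, 186 and 374 CPM in Pbrm1-fl (-1.85 ± 0.41, adjusted p = 0.00285). Gdf10 (chr14:33923587-33937983, plus strand), a ligand gene also called Bmp3b, was at 22.2, 57.4 and 186 CPM in Pbrm1-fl and 8.79, 307 and 987 CPM in Arid1a-fl, overlapping through 1 low Arid1a-fl tumour, replicate 1 (-2.41 ± 0.67, adjusted p = 0.0146). Bmpr1b (chr3:141837136-142169425, minus strand), required for digit cartilage, was at 8.43, 36.5 and 72.6 CPM and 2.10, 6.36 and 23.1 CPM (2.15 ± 0.62, adjusted p = 0.0182), and missed the threshold without the muscle-rich libraries (adjusted p = 0.065).

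Of the further pathway genes, 8 of 67 passed between Pbrm1-fl and Arid1a-fl, a share of 11.9% beside 12.3% of all genes. Msx1 (1.48, adjusted p = 0.00865), Atoh8 (1.11), Emilin1 (2.97), the ligand Gdf7 (adjusted p = 0.0348) and the procollagen and chordin protease Tll1 (1.25) were higher in Pbrm1-fl. Chrdl1 (-2.73, adjusted p = 0.00104), the related protease Bmp1 (-0.64, adjusted p = 0.013) and Twsg1 (-0.36) were lower. None of the 8 passed when each group was set against controls of its own number range, where adjusted p ran from 0.0563 for Bmp1 (-0.98) to 0.791 for Tll1 (0.38), and Emilin1 was at 1.74. In the 16 fits without 1 tumour Msx1, Emilin1, Chrdl1 and Bmp1 kept their calls. Gdf7 lost it without Pbrm1-fl replicate 2, 5 or 6 or Arid1a-fl replicate 1 or 8, Twsg1 without Pbrm1-fl replicate 5 or 7 or Arid1a-fl replicate 2, 4, 7 or 8, and Atoh8 without Pbrm1-fl replicate 7. Tll1 lost it in 9 of 16, those without Pbrm1-fl replicate 1, 3, 4 or 6 or Arid1a-fl replicate 1, 2, 5, 6 or 8 (highest adjusted p = 0.0859).

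In the hSS1 background none of 42 genes passed between 4 Pbrm1-fl and 5 control tumours by edgeR, beside 0.00562% of all genes, and 12 had an unadjusted p under 0.05 (8 higher, 4 lower) beside 17.2% of all genes. DESeq2 called 5, Grem1, Id1, Ltbp3, Smad9 and Tgfbr1. It also called many more of all genes than edgeR did, as counted at the end of the report, so the edgeR share is no background for these 5. The 4 genes with the lowest p were all higher in Pbrm1-fl tumours: the antagonist Grem1, the BMP target Id1, the BMP SMAD gene Smad9 and Ltbp3, whose product holds TGF-beta latent in the matrix.

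Grem1 was at 11.97, 27.5, 6.60, 7.003 and 20.2 CPM in hSS1 controls 1 to 5 and at 35.2, 69.0, 101 and 252 CPM in Pbrm1-fl tumours 1 to 4. The groups did not overlap (2.96 ± 0.64, adjusted p = 0.121). Grem1, Id1, Ltbp3 and Smad9 were named by lowest p among 42 genes, a choice that favours separated groups of 4 and 5 tumours. The share of all genes without overlap is not given here. Id1 was at 18.7, 62.0, 15.3, 6.79 and 28.98 CPM in controls and at 132, 156, 108 and 114 CPM in Pbrm1-fl tumours, also without overlap (2.28 ± 0.54, adjusted p = 0.122). Ltbp3 was at 344, 469, 339, 531 and 433 CPM in controls and at 896, 656, 630 and 666 CPM in Pbrm1-fl tumours, again without overlap (0.75 ± 0.18, adjusted p = 0.122). Smad9 was at 8.69, 19.5, 3.94, 3.07 and 14.9 CPM and at 16.7, 57.3, 44.97 and 53.1 CPM, with 3 of 4 above every control (2.10 ± 0.59, adjusted p = 0.162). The TGF-beta type I receptor gene Tgfbr1 was lower in each Pbrm1-fl tumour, at 78.2, 83.2, 119, 67.9 and 69.4 CPM in controls and 45.1, 51.5, 59.7 and 57.2 CPM in Pbrm1-fl tumours (-0.65 ± 0.19, adjusted p = 0.164). Id3 overlapped, at 75.4, 259, 57.5, 11.2 and 84.1 CPM and 179, 257, 470.5 and 287.5 CPM (1.62, adjusted p = 0.284).

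Fibroblast markers had a higher median in hSS1 Pbrm1-fl tumours, although the groups overlapped. They summed to 462, 1381 and 2569 CPM in controls and 2090, 4811 and 6424 CPM in Pbrm1-fl tumours, with 10 of 10 genes detected in both. Synovial sarcoma markers (9 of 10 matched) summed to 803, 1163 and 1228 CPM in hSS1 controls and 419, 754 and 829.3 CPM in Pbrm1-fl tumours, proliferation markers to 895, 1721 and 2344 CPM and 559, 1009 and 1424 CPM, and macrophage markers to 112, 239 and 280 CPM and 90.2, 119 and 227 CPM. These last 3 lists also overlapped between the groups and had lower medians in Pbrm1-fl. The part of these cells in the values above was not tested. Skeletal muscle markers were low in hSS1, at most 595 CPM. All 4 Pbrm1-fl tumours had mouse numbers of the middle range, as did 3 of the 5 controls. None of the 61 further pathway genes tested in hSS1 passed, and 12 had an unadjusted p under 0.05.

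Whether the Pbrm1 effect differed between hSS1 and hSS2 tumours was tested as a difference of the log2 fold changes over all 46 tumours. None of the 43 genes passed by edgeR, beside 2.86% of all genes (1.7% higher, 1.16% lower), while 10 had an unadjusted p under 0.05 (6 higher, 4 lower) beside 18.9%. Ltbp3 had the lowest p (0.86 ± 0.26 more positive in hSS1, adjusted p = 0.0538), and DESeq2 called this gene alone (adjusted p = 0.0245). The activin subunit gene Inhbb followed, at 18.2, 29.8, 23.1, 93.4 and 11.5 CPM in hSS1 controls and 4.65, 8.602, 18.97 and 6.65 CPM in Pbrm1-fl tumours (difference -1.87 ± 0.65, adjusted p = 0.101). Chrd, the gene of the BMP antagonist Chordin, was at 5.05, 19.6, 7.03, 13.9 and 13.9 CPM and 33.3, 15.8, 26.3 and 12.1 CPM (1.197 ± 0.43, adjusted p = 0.116). The Gdf5 difference of 3.80 ± 1.44 (adjusted p = 0.132) rested on at most 11 reads in any hSS1 library. For Grem1, the effect was 1.64 in hSS2 and 2.96 in hSS1, and the difference of 1.33 ± 0.77 did not pass (adjusted p = 0.344). For Id1 the difference was 1.29 ± 0.86 (adjusted p = 0.423).

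Levels in both backgrounds stand side by side, since the tables are separate. Mean Grem1 was 9.16 FPKM in hSS2 controls, 28.6 in hSS2 Pbrm1-fl, 6.56 in Arid1a-fl and 7.78 in Arid1b-fl, and 3.54 FPKM in hSS1 controls and 27.6 in hSS1 Pbrm1-fl. Mean Id1 was 43.2, 85.9, 57.6 and 52.5 FPKM in the 4 hSS2 groups in the same order, and 22.7 and 110 FPKM in the hSS1 groups. Mean Bmp7 was 58.6, 116, 87.5 and 74.9 FPKM in hSS2 and 59.04 and 76.04 FPKM in hSS1. Grem1 lay below Bmp7 in each of the 6 groups.

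Whether BMP-responsive genes varied together from tumour to tumour was examined within groups, after removing group means from log2 CPM. Over the 37 hSS2 tumours, Id1 followed Id3 most closely (r = 0.91, rho = 0.85), then Id2 (r = 0.78, rho = 0.75) and Smad9 (r = 0.71, rho = 0.62), each with a permutation p of 1e-05, the smallest that 100000 resamples could give (adjusted p = 2.33e-05 over 7 relations). For Id3, r was 0.88 without the 2 tumours of most extreme Id1 (Arid1a-fl replicate 1 and control replicate 1) and 0.95, 0.82 and 0.83 within the 3 ranges of mouse numbers. Smad6 (r = 0.48, rho = 0.55, permutation adjusted p = 0.00856) and Id4 (r = 0.37, rho = 0.42, permutation adjusted p = 0.0443) followed Id1 less closely, and r for Smad6 was 0.63, -0.03 and 0.58 within the ranges, so that relation was not seen in every range. For Id4 r was 0.12, 0.74 and 0.36 within the ranges, and with the means of each group and range removed it was 0.37 and no longer passed (permutation adjusted p = 0.0558). Smad7 (r = 0.30, permutation adjusted p = 0.109) and Bambi (r = 0.08, permutation adjusted p = 0.662) did not pass. These tumours differ in cell makeup, which all the genes share. Over the 9 hSS1 tumours no relation passed: r for Id1 and Id3 was 0.88 (exact permutation over 2880 arrangements, adjusted p = 0.169), and it was -0.02 without controls 2 and 4, so it rested on those 2 tumours.

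**Figure D4:**
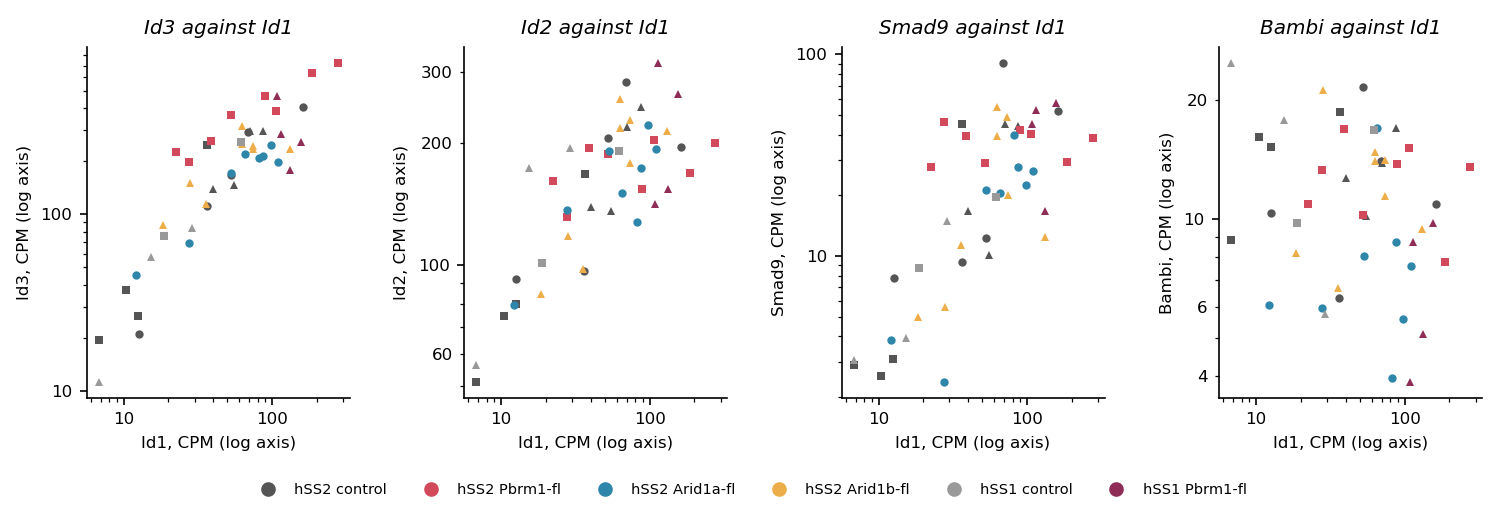
Level of Id3, Id2, Smad9 and Bambi against Id1, in CPM on log axes, with 1 point for each of the 46 tumours, colours for the 6 genotype groups and shapes for the range of the mouse number. Within hSS2 groups Id3 follows Id1 most closely of these (r = 0.91), and Bambi does not follow it (r = 0.08).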

How the data were processed

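Fresh frozen tumour tissue was extracted with TRIzol, depleted of ribosomal RNA and made into stranded libraries. Per the labels, the authors aligned reads with STAR 2.7.11 to mm10 and deposited raw counts per gene from featureCounts 1.6.3, in 1 table for hSS2 (37 libraries, 56980 genes) and 1 for hSS1 (9 libraries, 56941 genes). The annotation release and the strand setting of the counting are not given in the sources used here. Symbols, positions and exon lengths were taken from GENCODE M21 (GRCm38), which named 91.4% and 91.2% of identifiers.

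Groups came from the labels. Each table was fitted with edgeR 4.0.16 (R 4.3.3) with TMM scaling, filterByExpr and robust quasi-likelihood F-tests, two-sided, with Benjamini-Hochberg adjustment over all genes tested (20083 in hSS2, 17786 in hSS1, 21725 for the difference between backgrounds) and a threshold of 0.05. The script was tested on simulated data. CPM use TMM-scaled totals, and FPKM are CPM per kb of summed exons. Correlations used log2 CPM with a prior count of 2 and permutation within groups. Alternatives were RLE scaling, DESeq2 1.42.0 (the tool of the study), other filters, an adjusted p under 0.01, only the 2 groups compared, the mouse number range, leaving out 1 library at a time and, chosen after seeing the data, leaving out libraries over 10000 CPM of summed skeletal muscle markers. No 2 libraries of a group agreed within sampling noise (lowest chi-square per degree of freedom 16.9). Depth was 10137668 to 21294657 counted reads per library, and genes at a few reads, such as Gdf5, carry large counting error.

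The 43 genes and the further lists were chosen with earlier results of these data known. Named were all genes past the threshold, the genes of lowest p up to 4 per comparison where fewer passed, the disrupted genes and the highest in each role. Promoters were shown for 3 called genes at most, of those with an entry in the promoter table, and none from chromosome 18, where 4 of the genes lie.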

Additional observations from a re-analysis of the deposited data

Results flagged for a closer look

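For each gene, the highest and lowest tumour in groups of 4 to 10 was tested by its gap to the others (Dixon's test at the 95% level). Of 215 groups, 16 had such a tumour, beside about 1 in 20 expected by chance. Among ligands, hSS1 control replicate 4 was low for Bmp5 (0.143 CPM) and high for Tgfb1 (50.7 CPM), hSS2 Arid1b-fl replicate 6 was high for Gdf5 (6.58 CPM), and Arid1a-fl replicate 1 was low for Gdf10 (8.79 CPM). Tgfb2 was low in hSS2 Pbrm1-fl replicate 8 (10.6 CPM) and hSS1 Pbrm1-fl replicate 4 (39.8 CPM).

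Among receptors, Tgfbr2 was low in hSS2 Pbrm1-fl replicate 8 (17.7 CPM) and hSS1 Pbrm1-fl replicate 3 (30.4 CPM), Bmpr2 in Arid1b-fl replicate 6 (301 CPM) and Acvr1 in Arid1a-fl replicate 1 (16.9 CPM). Among SMADs, Smad1 was high in hSS2 Pbrm1-fl replicate 7 (210 CPM) and Smad3 in hSS1 control replicate 5 (223 CPM), while Smad4 was low in hSS2 Pbrm1-fl replicate 3 (76.6 CPM) and high in Arid1b-fl replicate 1 (114 CPM). Ltbp1 was low in hSS2 Pbrm1-fl replicate 8 (4.77 CPM), where the other 7 had 49.1 to 359 CPM, and Ltbp3 was high in hSS1 Pbrm1-fl replicate 1 (896 CPM). Replicate 8 of hSS2 Pbrm1-fl was therefore low for the TGF-beta genes Tgfb2, Tgfbr2 and Ltbp1 together. Within its group the same tumour had the lowest sums of fibroblast (1203 CPM) and of pericyte and smooth muscle markers (267.5 CPM). It also had the highest sum of proliferation markers (1621 CPM). The part of cell makeup in these low values was not tested.

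Of 70 further pathway genes tested for a difference of the Pbrm1 effect between hSS1 and hSS2, 3 passed by edgeR, 1 higher and 2 lower. This was 4.29% beside 2.86% of all genes (1.7% higher, 1.16% lower). The secreted BMP and Nodal antagonist gene Cer1 had a difference of -10.09 ± 2.16 (adjusted p = 0.0103): it was at 39.98, 2.09, 176.8, 0.0715 and 57.5 CPM in hSS1 controls, at 0.449 CPM or less in hSS1 Pbrm1-fl, and at most 27 reads in any hSS2 control or Pbrm1-fl library, so the size of the fitted value rests on near-zero counts. The ligand gene Bmp8a had a difference of 3.67 ± 0.88 (adjusted p = 0.018), with at most 3 reads in hSS1 controls and 3.42, 0.905, 0.102 and 0.539 CPM in hSS1 Pbrm1-fl, and it was 2.43 (adjusted p = 0.154) without hSS1 Pbrm1-fl replicate 1. Tgif1, a corepressor of SMAD2 and SMAD3, had a difference of -1.65 ± 0.39 (adjusted p = 0.0182), with 86.3, 237.5, 329.9, 60.7 and 59.1 CPM in hSS1 controls and 32.5, 52.1, 30.8 and 39.5 CPM in hSS1 Pbrm1-fl, all 4 below every control. The Tgif1 call was lost without hSS1 control replicate 3 (-1.16) or hSS1 Pbrm1-fl replicate 1. None of the 3 passed with only the hSS2 tumours numbered 2000 and over, where Cer1 was at -10.98 (adjusted p = 0.12), Bmp8a at 3.90 (adjusted p = 0.152) and Tgif1 at -1.71 (adjusted p = 0.207).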

How the results depend on the processing

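Of the 43 genes, the number called moved by over 1.5 times under these alternatives. For hSS2 Pbrm1-fl (6) it was 1 at an adjusted p under 0.01, 3 without a filter, 3 with only the 2 groups compared and 0 against controls of the same number range. For Arid1a-fl (2) it was 0 at an adjusted p under 0.01, 0 without a filter, 0 against controls of the same range, 0 without muscle-rich libraries, 4 with RLE scaling, 4 with a stricter filter and 6 with DESeq2. DESeq2 gave 5 in hSS1 Pbrm1-fl (0) and 1 for the difference between backgrounds (0). Pbrm1-fl against Arid1a-fl (6) gave 0 when each was set against controls of its own range. For Arid1b-fl the count was 0 throughout. Leaving out 1 library at a time gave 2 to 8 for Pbrm1-fl, 0 to 5 for Arid1a-fl, 0 to 0 for Arid1b-fl and for hSS1, 0 to 1 for the difference and 6 to 9 for Pbrm1-fl against Arid1a-fl. For Pbrm1-fl the lowest count came without replicate 3, and it was 3 without Pbrm1-fl replicate 2, 4 or 5 or control replicate 9 or 11. The 1 gene called for the difference was Ltbp3 (without hSS2 control replicate 3, 6, 9 or 13 or hSS1 control replicate 4), Smad1 (without hSS2 Pbrm1-fl replicate 7) or Inhbb (without hSS1 Pbrm1-fl replicate 3). Gdf5 in Arid1b-fl ranged from -0.68 to 1.45 and reversed without Arid1b-fl replicate 6 (-0.68). Within number ranges, r for Id1 and Id4 was 0.37 (permutation adjusted p = 0.0558). Over all genes, the count for hSS2 Pbrm1-fl was 1476 and 46 against controls of the same range, 477 with the range as a term and 503 at an adjusted p under 0.01. For Arid1a-fl it was 637, and 0, 1405 and 26 under these settings, 243 without a filter, 1696 with DESeq2 and 27 without muscle-rich libraries. DESeq2 called 1184 genes in hSS1 Pbrm1-fl (1 by edgeR) and 1195 for the difference (622). The cause of these changes was not tested. No paired analysis was possible because the labels give no replicate numbers and do not say which mice shared a litter, although the methods state that controls were littermates. Replicates were numbered in accession order. Depth limits what can be said of Gdf5, Cer1 and Bmp8a, which had few or no reads in some groups.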
